A study of Sus scrofa with 12 samples.

Results

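Myostatin, activin and insulin-like growth factor (IGF) genes set how much skeletal muscle an animal builds, and 9 of them were followed here in pig muscle: the ligands MSTN, IGF1 and IGF2, the receptors ACVR2A, ACVR2B and IGF1R, the inhibitor FST, the binding protein IGFBP5 and the signalling adaptor TAB1. They were chosen by name, out of 28210 RefSeq genes on the placed chromosomes. The samples were longissimus muscle of 2-week-old male piglets of a commercial lean breed, Large White (LW), and a Chinese local breed, Meishan (MS). Each breed had 2 libraries of H3K27ac BL-HiChIP, which captures DNA contacts that carry the active histone mark H3K27ac, and 2 libraries of GRID-seq, which ligates RNA to the DNA it lies next to. No treatment or genetic change was applied, and the comparison asked where the active chromatin contacts of muscle differ between a lean and a local breed. The study describes material from 2 male piglets without saying which library came from which animal, so p-values measure the spread between these libraries, which may be technical.

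Myostatin and the activins are secreted proteins that bind the type II receptors ACVR2A and ACVR2B on the muscle fibre, signal through SMAD proteins and TAK1, and restrain muscle growth. Follistatin, the product of FST, traps these ligands outside the cell. IGF1 and IGF2 act in the other direction through IGF1R and the AKT and mTOR kinases, and IGF-binding proteins such as IGFBP5 hold them in the matrix around the fibre.

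The BL-HiChIP lists held 57028 and 43282 loops in LW and 45061 and 33353 in MS, each a pair of 5-kb anchors with a false discovery rate (FDR). The GRID-seq lists held 568 and 678 chromatin-associated RNAs in LW and 518 and 648 in MS, with between 7172517 and 9943666 RNA reads per library. The RNA of TTN, which encodes the giant sarcomere protein titin of striated muscle, was listed in all 4 libraries with at least 697633 reads. A listed RNA had at least 432 reads, so an RNA missing from a list was not shown to be absent from that muscle. The muscle was whole tissue, in which fewer cells of a type and less signal per cell cannot be told apart.

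For each gene loops that had an anchor no more than 1 kb from a gene end were taken, and their −log10 FDR values were summed to an interaction score. The loop lists gave the growth genes 88 different loops at their ends. IGFBP5 had by far the most with 33, followed by IGF1R and TAB1 with 12 each, MSTN with 11, FST with 8, ACVR2A with 7, IGF2 with 3 and ACVR2B with 2. IGF1 had no loop at either end in any library. The 66 loops of the LW libraries and the 50 of the MS libraries had 28 in common, which was 42.4% of the LW loops and 56.0% of the MS loops. Over all loops at gene ends the shared parts were 39.1% and 47.5%.

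**Figure D1:**
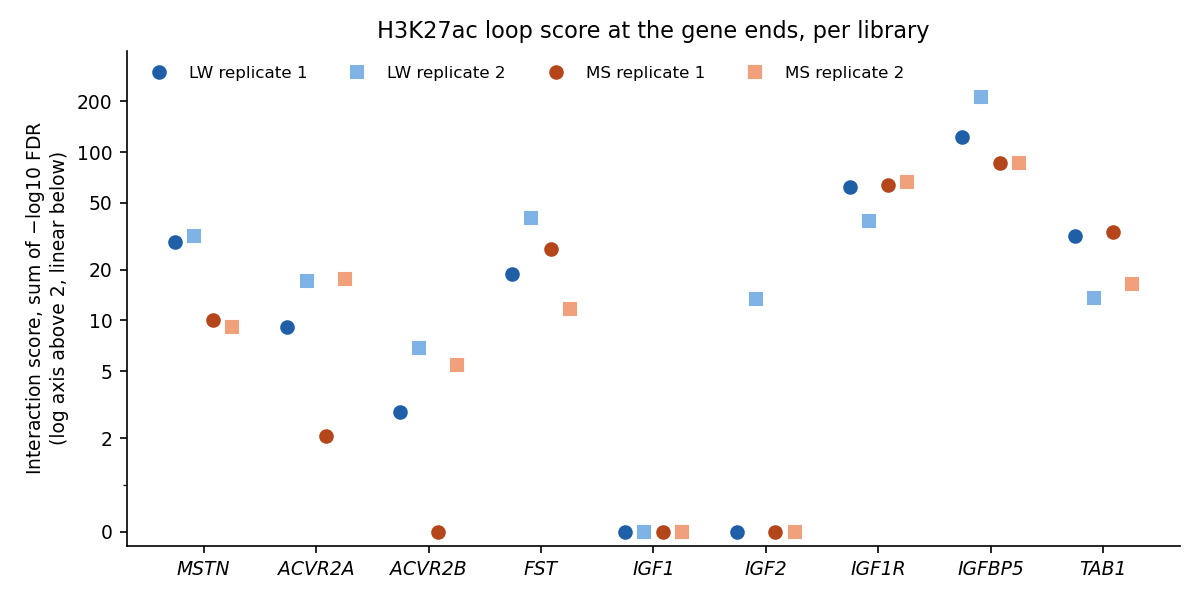
Interaction score (sum of −log10 FDR over loops at the gene ends, logarithmic above 2 and linear below) of the 9 growth genes, with 1 point per library, circles for replicate 1 and squares for replicate 2. IGFBP5 had the highest score in each of the 4 libraries, from 85.7 to 212, IGF1 was at 0 throughout, and both LW points of MSTN lay above both MS points.

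Both LW libraries exceeded both MS libraries at 2 of the 8 growth genes with a loop, MSTN and IGFBP5, against 21.1% of all genes tested. Both MS libraries exceeded both LW libraries at IGF1R, against 7.02% of all genes. With limma over 15431 genes (Benjamini-Hochberg adjustment) 0 of the 8 growth genes and 0 genes at all (0%) had an adjusted p under 0.05. None of the 8 had an unadjusted p under 0.05 with all libraries, against 822 genes or 5.33% of all, and DESeq2 on the rounded score also gave 0 adjusted calls. The study's own threshold, a log2 fold change beyond 1.5 with an unadjusted p under 0.05, was passed by none of them, beside 2.83% of all genes towards LW and 2.50% towards MS. Without LW replicate 1, which left 1 LW library, the log2 differences of IGF2 and MSTN were 3.72 and 1.42, beside 1.61 and 1.24 with all libraries. An exact permutation test of a single gene cannot go below p = 0.333 with 2 libraries per breed.

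MSTN, on chromosome 15 from 94623526 to 94628440 (Sscrofa11.1, as for all positions here), encodes myostatin, the main brake on muscle mass. Its interaction score was 29.1 and 31.6 in the LW libraries, from 7 and 6 loops, against 10.0 and 9.16 in the MS libraries, from 3 loops each. The groups did not overlap, and the 2 libraries of each breed lay close together. The normalized log2 difference of LW over MS was 1.24 ± 0.75 (SE), with a limma adjusted p of 0.992. In the lists this difference came as additional loops in LW, mostly weak: 7 loops were found in LW alone, 2 in MS alone and 2 in both breeds. Both loops of MS alone, however, had a far anchor directly beside that of an LW loop, so these counts depend on exact bin placement.

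The 2 shared MSTN loops were called in all 4 libraries and both ran to ends of neighbouring genes on the lower-coordinate side. The first reached an end of PMS1, a DNA mismatch repair gene, at 275 kb, with −log10 FDR values of 6.82 and 8.15 in LW against 5.26 and 3.19 in MS. The second reached an end of ORMDL1, a regulator of sphingolipid synthesis, at 250 kb, with 3.08 and 6.94 in LW against 2.46 and 3.44 in MS. The PMS1 loop was the stronger of the pair in 3 of the 4 libraries. Nearer to MSTN, a 35-kb loop was found in both LW libraries (3.07 and 5.54) and in neither MS library, while MS replicate 2 had a 30-kb loop of 2.53. The MSTN anchor also holds an end of the neighbouring gene C15H2orf88, so these loops cannot be assigned to MSTN alone.

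IGF1, on chromosome 5 from 81762027 to 81909253, encodes the growth factor that growth hormone induces in liver and muscle. Its ends carried no loop in any library, and the nearest loop anchor lay 8 kb away in LW replicate 1 and MS replicate 1 and 13 kb away in the other two. Loops with an anchor inside the 147.2-kb gene were present, with 8 and 6 in LW against 8 and 3 in MS. A 35-kb loop between 2 sites inside the gene was called in all 4 libraries, at 3.66 and 7.59 in LW against 7.53 and 4.84 in MS. The breeds overlapped in this value. The higher-coordinate anchor of this loop also held an end of LOC110260785, so the loop cannot be assigned to IGF1 alone. Loops with an anchor inside a gene but none at its ends were counted after the values at the gene ends were seen. They are given as a description with no test.

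IGF2, on chromosome 2 from 1469183 to 1496417, encodes the fetal and early postnatal growth factor and is an imprinted gene in mammals, expressed from the paternal copy. LW replicate 2 was the only library with loops at its ends, 3 of them with a summed score of 13.4, and the other LW library and both MS libraries were at 0. Of these loops, 2 joined the ends of IGF2 to LOC110259183, at 105 kb (6.75) and 135 kb (4.15), and the third reached ends of LSP1, LOC110259216 and TNNT3 at 200 kb (2.51). The anchor of the 135-kb and 200-kb loops also held ends of INS, the insulin gene, and of TH, the tyrosine hydroxylase gene. The difference rested on 1 library and gave a limma adjusted p of 0.992.

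In loops with an anchor inside IGF2 but none in the 1-kb windows, the libraries were more even: 10 and 8 loops in LW and 6 and 7 in MS. Some of these left the gene, such as a 205-kb loop called in 3 libraries. The summed −log10 FDR of these loops was 72.0 and 73.5 in LW against 31.0 and 30.2 in MS. Both LW libraries exceeded both MS libraries, again as a description only. The share of all genes with this order in such loops is not given.

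ACVR2A, on chromosome 15 from 4177333 to 4259056, encodes a type II receptor for activins and myostatin. Each of its 7 loops touched the higher-coordinate end. The score was 9.18 and 17.2 in LW against 2.06 and 17.6 in MS, so the highest and the lowest value both belonged to MS. The strongest loop was the shortest, 5 kb between adjacent anchors at that end, with a value of 7.88 in LW replicate 2, then 2.06 and 14.1 in the MS replicates. A 10-kb loop into the gene was found in both LW libraries (3.41 and 3.16) and in neither MS library. The log2 difference of LW over MS was 0.74 ± 1.21 (SE, limma adjusted p = 0.994), and it turned to −0.91 without MS replicate 1.

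ACVR2B, on chromosome 13 from 23237699 to 23276086, encodes the type II receptor that binds myostatin most tightly. Its scores were the lowest of the 3 receptors in every library, 2.87 and 6.86 in LW against 0 and 5.41 in MS. Only 2 loops touched its ends, and both stayed within the gene. The 10-kb loop was seen in both LW libraries and the 35-kb loop, which nearly spans the gene, in replicate 2 of each breed. The near anchor holds an end of EXOG as well. The log2 difference was 0.55 ± 1.24 (SE, limma adjusted p = 1.00). Without LW replicate 2 it came to −0.16, and leaving out MS replicate 1 gave −1.10. Further loops with an anchor in the gene but none at its ends numbered 3 and 4 in LW against 1 in each MS library. Their summed −log10 FDR was 12.9 and 30.4 in LW against 2.07 and 3.91 in MS. The strongest, 14.4 in LW replicate 2, left the gene and reached ends of PLCD1 and DLEC1 at 370 kb. This is a description only, and the share of all genes with this order is not given.

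IGF1R, on chromosome 1 from 137383623 to 137691038, encodes the tyrosine kinase receptor of both IGFs. Its score was 62.3 and 38.8 in LW against 63.4 and 66.7 in MS, above at least 88.2% of the genes tested in every library. The LW replicate 1 and MS replicate 1 values differed by little, and LW replicate 2 stood lower. The log2 difference was −0.57 ± 0.79 (SE, limma adjusted p = 0.994). All 12 loops started from the higher-coordinate end of the 307.4-kb gene.

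A loop of 200 kb from that end to a site inside IGF1R itself was the strongest loop of the gene in all 4 libraries, with −log10 FDR values of 36.2 and 31.4 in LW against 46.5 and 35.8 in MS. Its values ran within a narrow range for this measure, and the breeds overlapped. A second loop, of 135 kb and away from the gene, was also called in all 4 libraries, at 15.3 and 4.08 in LW against 11.8 and 12.6 in MS. Its far anchor held no gene end and lay 25.6 kb from SYNM, which encodes synemin, an intermediate filament protein of muscle. A 395-kb loop to an end of FAM169B was called in LW replicate 2 (3.35) and MS replicate 2 (3.49). The remaining 9 loops were each found in 1 library.

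FST, on chromosome 16 from 32806341 to 32811382, encodes follistatin. Its score was 19 and 40.5 in LW against 26.6 and 11.7 in MS, so the breeds overlapped in part, with the highest value in LW and the lowest in MS. LW over MS the log2 difference was 0.20 ± 0.86 (SE, limma adjusted p = 1.00), which became −0.40 when LW replicate 2 was left out and −0.28 when MS replicate 2 was. All 8 FST loops were long, from 280 to 660 kb. The strongest reached 650 kb into the body of ARL15, a small GTPase gene, and was called in all 4 libraries at 13.6 and 22.4 in LW against 12.2 and 5.25 in MS. A 335-kb loop on the other side, 7.6 kb short of MOCS2, was called in replicate 2 of each breed (8.23 and 2.63). Loops of 430 and 440 kb into ARL15 were called in replicate 1 of each breed.

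IGFBP5, on chromosome 15 from 118861816 to 118877787, encodes an IGF-binding protein that muscle cells make as they differentiate. Its interaction score was 123 and 212 in LW against 86.4 and 85.7 in MS, above 99.0% and 99.1% of the genes tested in LW against 98.2% and 96.6% in MS. The scores came from 17 and 21 loops in LW against 17 and 10 in MS. The breeds did not overlap, and LW replicate 2 stood apart at the top. The log2 difference of LW over MS was 0.68 ± 0.76 (SE, limma adjusted p = 0.992).

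The GRID-seq lists give IGFBP5 the minus strand, so the gene starts at its higher coordinate, and 28 of the 33 loops left from there, all but 1 of them away from the gene. The far anchors came in groups: at 60 to 255 kb, at 455 to 510 kb and at 720 to 1030 kb. None of these anchors held the end of another gene, and most of the first group lay within 100 kb of TNP1, the transition protein gene of sperm. Loops of 80, 455 and 500 kb were called in all 4 libraries. The 80-kb loop had −log10 FDR values of 9.09 and 16.3 in LW against 3.03 and 10.8 in MS. The 500-kb loop had 5.41 and 4.69 in LW against 8.0 and 5.68 in MS, and the 455-kb loop 2.83 and 4.66 in LW against 6.84 and 6.45 in MS. The 80-kb loop overlapped between breeds, whereas both of the longer ones were higher in both MS libraries, against the direction of the total score. How many of all loops separate the breeds in this way is not given, so this is a description only.

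Strong contacts of IGFBP5 fell on nearby far anchors that were not adjacent bins. LW replicate 1 and both MS libraries had a loop at 475 kb, with 37.6, 19 and 16.4, and LW replicate 2 had one at 465 kb, with 39.7. The loop at 465 or 475 kb was the strongest IGFBP5 loop in each library but MS replicate 2. Both LW values were above both MS values, as a description only. Whether these distances mark the same contact was not tested. A 130-kb loop was strong in LW replicate 2 (27.7) and in MS replicate 2 (23.7), where it was the strongest, weaker in MS replicate 1 (8.13) and not called in LW replicate 1. Farther out, the 1000-kb loop was called in both LW libraries (5.99 and 2.69) and the 1030-kb loop in replicate 1 of each breed (2.60 and 2.46).

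**Figure D2:**
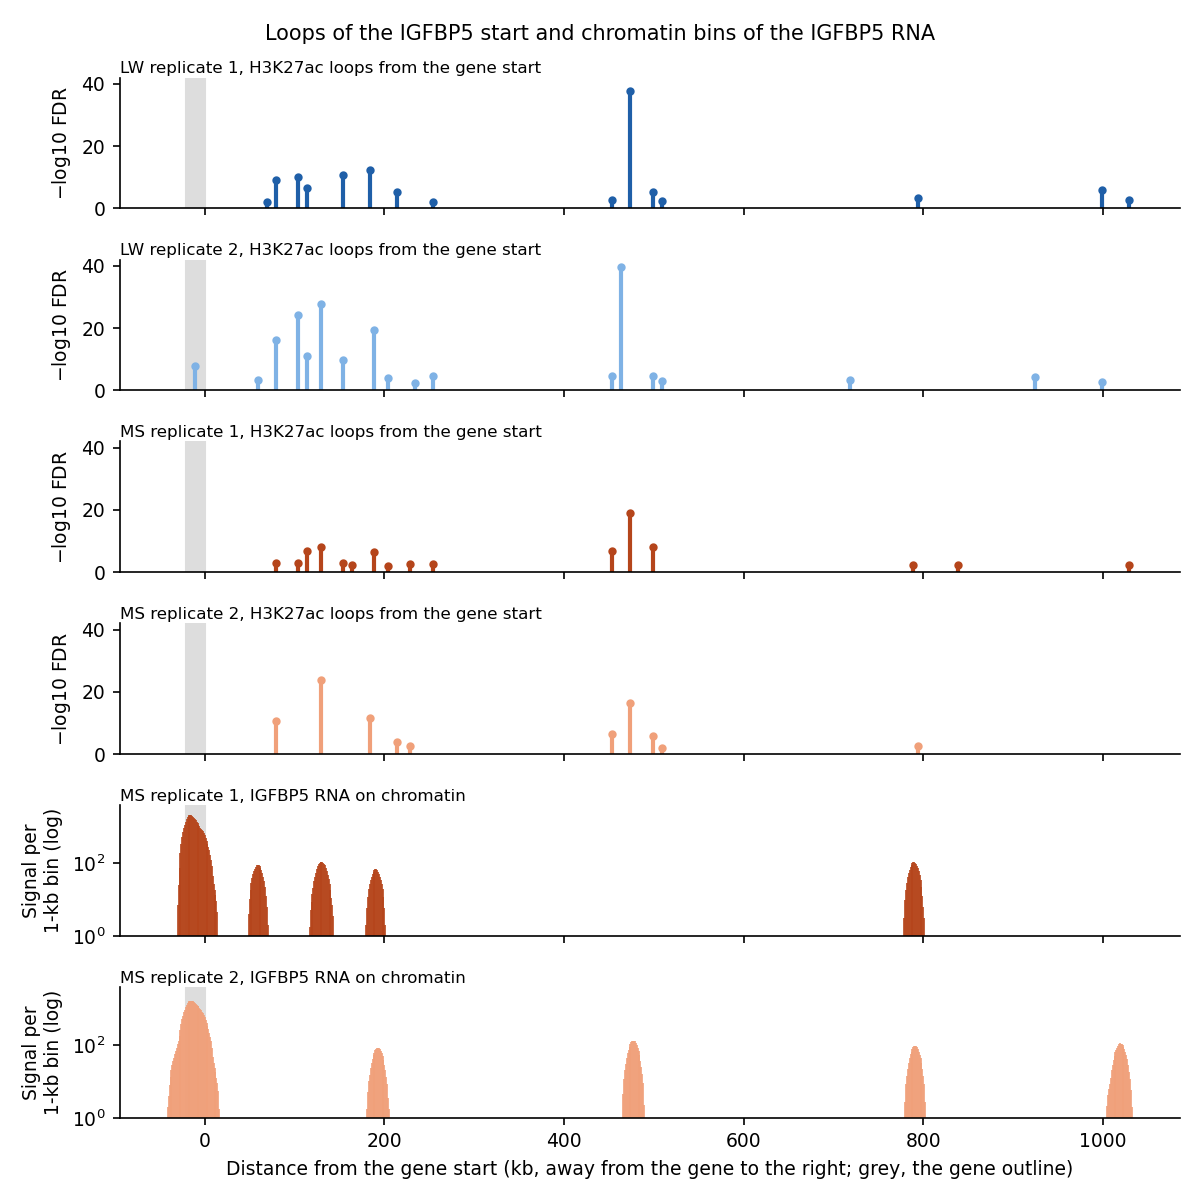
Loops from the start of IGFBP5 in each library (upper 4 panels, −log10 FDR against distance from the gene start in kb) and bins covered by the IGFBP5 RNA in the MS libraries (lower 2 panels, signal per 1-kb bin on a logarithmic axis), with the gene outline in grey. Loop anchors gathered near 100 to 250 kb, near 475 kb and near 800 to 1000 kb, and RNA stretches near 190 and 790 kb appeared in both MS libraries.

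TAB1, on chromosome 5 from 8827363 to 8852814, encodes the adaptor that activates the kinase TAK1 below TGF-beta family receptors. Its score was 31.9 and 13.5 in LW against 33.5 and 16.4 in MS, higher in replicate 1 of both breeds. The log2 difference was −0.46 ± 0.84 (SE, limma adjusted p = 0.994). Without LW replicate 2 it came to 0.06, and leaving out MS replicate 1 gave 0.01. An 80-kb loop to an end of LOC110260838 was called in all 4 libraries, at 14.2 and 3.88 in LW against 25.8 and 5.33 in MS. A 70-kb loop to an end of RPL3, which encodes a protein of the large ribosomal subunit, was called in both LW libraries (3.39 and 6.90) and in neither MS library. With anchors within 5 kb of a gene end the log2 difference was −1.15 (limma adjusted p = 0.970). Loops with an anchor in TAB1 but none at its ends numbered 1 in each LW library against 4 and 2 in MS. Their summed −log10 FDR was 3.01 and 2.14 in LW against 20.3 and 22.5 in MS. This order is a description only, and its share of all genes is not given.

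Over the 88 loops, 9 were called in all 4 libraries, 8 in 3, 20 in 2 and 51 in 1 library. Those in all 4 made up 10.2%, beside 4.59% of the 59861 loops at any gene end. The growth genes' loops were long, with median distances of 200 kb in LW and 207.5 kb in MS beside 60 kb in each breed for all gene-end loops. Loops of 500 kb or more numbered 12, or 13.6% beside 2.99% of all gene-end loops, and all 12 belonged to IGFBP5 and FST. These figures are descriptions, since IGFBP5 alone supplied 33 of the loops. The far anchor held the end of a different gene in 16 of them.

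**Figure D3:**
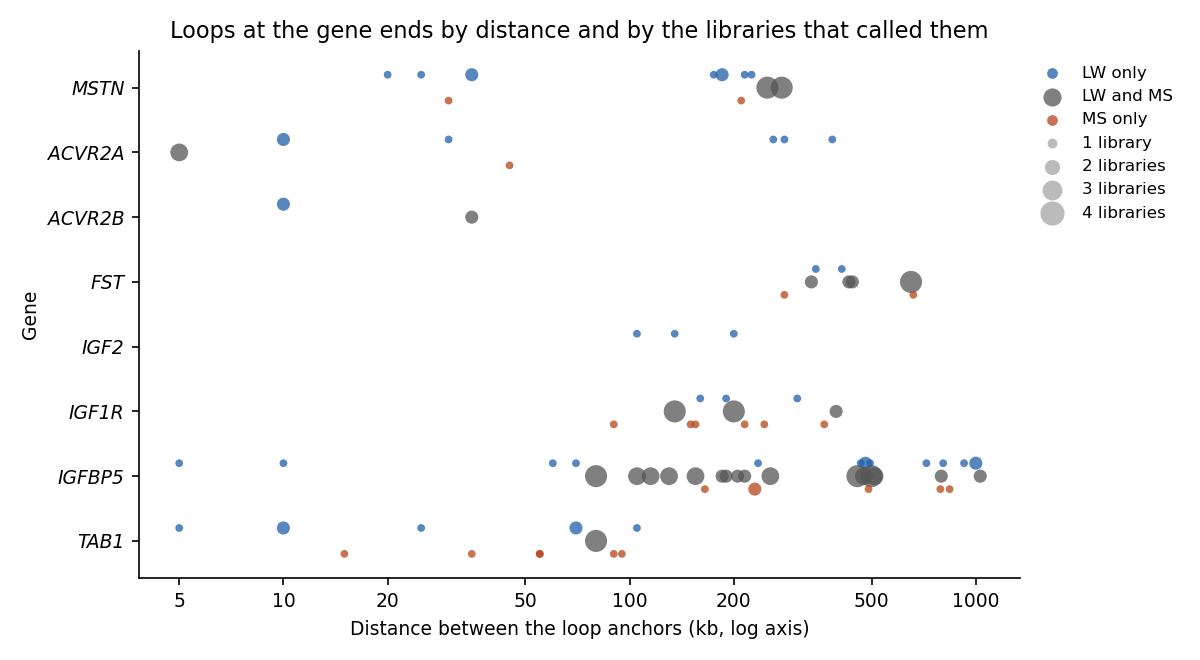
Loops at the ends of the 8 growth genes that had any, by anchor distance (kb, logarithmic axis), with point size for the number of libraries that called the loop and colour for the breeds. The large grey points are the 9 loops of all 4 libraries, which lie at 80 kb or more, and the small points are the 51 loops of 1 library.

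RNA on the chromatin of the growth genes was read from the GRID-seq signal on 1-kb bins within 5 kb of a gene end. Here the signal is spread over neighbours, with a median of 28 consecutive bins per stretch and at least 15, so a bin can carry signal from contacts several kb away. At the 9 genes 18 RNAs were found, in 30 pairs of gene and RNA: 3 with the RNA of the gene itself, 13 with RNAs from elsewhere on the chromosome and 14 with RNAs from other chromosomes. An RNA was taken as that of the gene itself if its outline overlapped the gene. No signal was listed at FST and IGF1 in any library. A gene without listed signal in a library was given 0 there, which does not show that no RNA was present. Both LW libraries exceeded both MS libraries at IGF2 and MSTN, 2 of the 7 genes with signal against 16.7% of all genes, and the reverse held at ACVR2A and IGFBP5, against 20.5% of all genes. With limma over 23302 genes, 0 of the 7 and 0 genes in all (0%) had an adjusted p under 0.05. At an unadjusted p under 0.05 with a log2 fold change beyond 2, the study's threshold, the same 4 genes passed, 2 towards LW beside 7.49% of all genes and 2 towards MS beside 8.28%. Unadjusted p alone was under 0.05 for 15.8% of all genes.

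**Figure D4:**
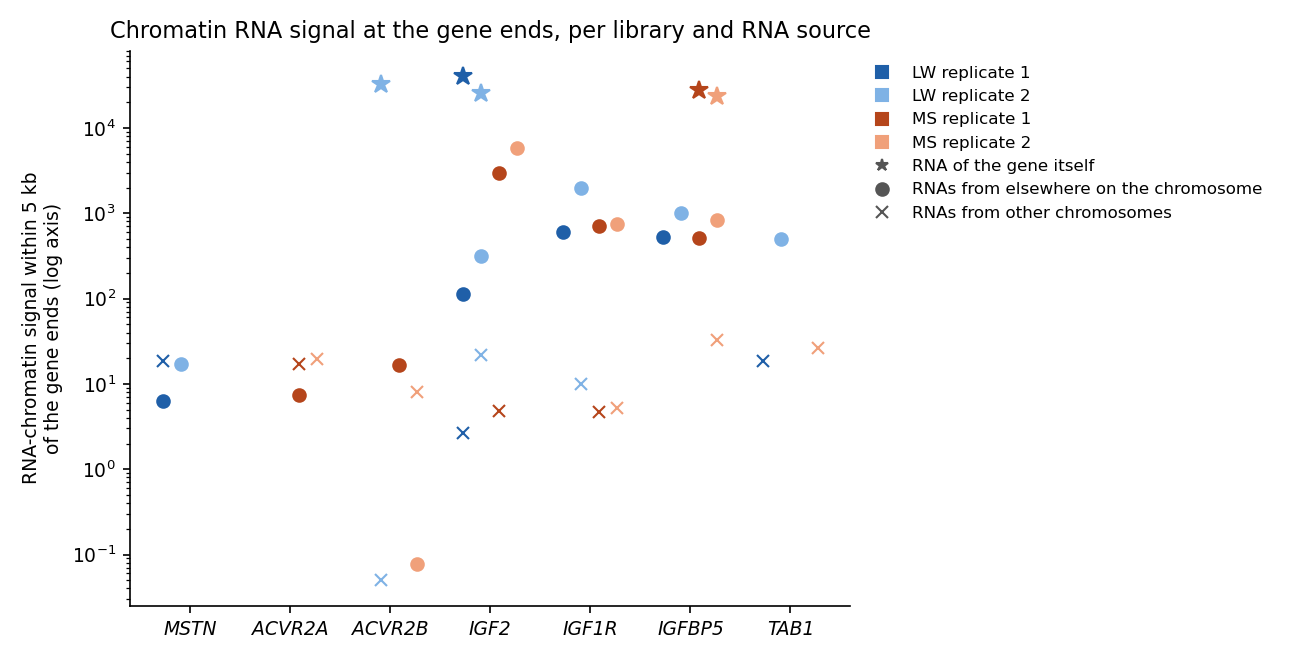
RNA-chromatin signal within 5 kb of the gene ends (logarithmic axis) by library and by source of the RNA. A missing symbol means that no signal was listed, as for FST and IGF1, which are not drawn. Stars mark the RNA of the gene itself, taken as any RNA whose outline overlaps the gene. It was present at IGF2 in both LW libraries, at IGFBP5 in both MS libraries and, as an unnamed transcript, at ACVR2B in LW replicate 2.

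At IGF2 the summed signal was 40711 and 25670 in LW against 2969 and 5848 in MS, without overlap. The log2 difference was 2.91 ± 0.89 (SE, limma adjusted p = 0.263). The RNA outlined on IGF2 itself, listed as ENSSSCG00000035293 from 1469132 to 1496442 on the minus strand, was in both LW lists with 6234 and 6385 reads and in neither MS list. It made 99.7% and 98.7% of the signal at the gene ends in LW. In MS most of the signal came instead from an RNA outlined over LOC110259183, 103.3 kb away, with 2701 of the 2969 in MS replicate 1 and all 5848 in MS replicate 2. With the RNA of the gene itself left out the difference turned to −4.65 (limma adjusted p = 0.210). IGF2 also failed the study's threshold without MS replicate 1, with a pseudocount of 0.1, with bins within 10 kb and with the replicate block, where its unadjusted limma p was 0.0523, 0.0942, 0.0571 and 0.104.

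The transcript over LOC110259183 was outlined separately in each library and had 597 and 578 reads in LW and 1286 and 1707 in MS. Its outline ran from 1359799 to 1365906 and from 1360229 to 1365842 in LW. In MS it was longer, from 1357651 to 1365906 and from 1355950 to 1365892, so the reads do not cover the same stretch. Between it and IGF2 lies another listed RNA, ENSSSCG00000050649, from 1381838 to 1384446 on the minus strand. Its reads were 7263 and 7249 in LW against 13609 and 15589 in MS, higher in both MS libraries, as was the transcript over LOC110259183. These values were looked up after the signal at IGF2 was seen, and the totals of RNA reads per library were not higher in MS. They were not tested, and the share of all listed RNAs with more reads in both MS libraries is not given. The RNA listed as TNNT3, the fast skeletal troponin T gene, 151.6 kb away, has an outline that also covers MOB2, DUSP8, CTSD and other genes, and it added 112 and 313 in LW and 263 in MS replicate 1, and nothing in MS replicate 2.

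The IGF2 RNA stayed on its gene. It covered 46 and 47 bins in the LW libraries, all in 1 stretch, with 99.96% and 99.89% of its signal within 10 kb of its outline and none on other chromosomes. The highest bin lay 22.9 kb from the start in both libraries. Within 5 kb of the 3′ end lay 54.1% and 53.6% of the signal, and within 5 kb of the start 0.39% and 0.74%.

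**Figure D5:**
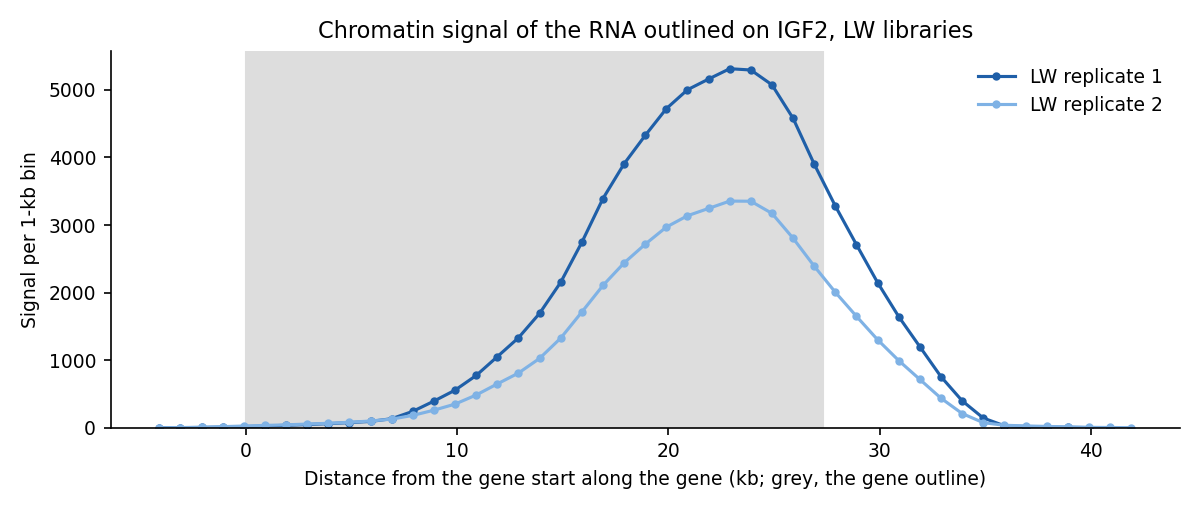
Signal of the RNA outlined on IGF2 per 1-kb bin against distance from the gene start along the gene (kb, gene outline in grey) in LW replicates 1 and 2. Both profiles are low over the start and reach their highest bin at 22.9 kb, near the 3′ end.

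At IGFBP5 the signal was 528 and 994 in LW against 28212 and 24716 in MS. The MS libraries exceeded the LW libraries, opposite to the interaction score of the same gene, and the log2 difference of LW over MS was −5.31 ± 0.86 (SE, limma adjusted p = 0.156). IGFBP5's own RNA, outlined from 118857479 to 118878522 on the minus strand, was listed in MS alone with 3403 and 3981 reads and made 98.2% and 96.5% of the MS signal. Left out, the difference was −0.34 (limma adjusted p = 0.873). What remained came mainly from the RNA of TNS1, which encodes tensin, a focal adhesion protein, 1071.7 kb away. Its signal at IGFBP5 was 518 and 970 in LW against 490 and 587 in MS, so it was present in every library with overlapping breeds. TNS1 RNA reached 0.13% of all genes in each library. The RNA of IRS1, the docking protein below the insulin and IGF1 receptors, added 220 in MS replicate 2, from 9368.1 kb away.

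Unlike the IGF2 RNA, the IGFBP5 RNA was also found away from its gene, always on the same chromosome. It covered 139 and 158 bins in the MS libraries, with 89.3% and 86.1% of the signal within 10 kb of its outline. Beyond it 4 separate stretches were listed in each MS library, as far as 800.5 kb in replicate 1 and 1031.5 kb in replicate 2. Stretches with their highest bin near 190 kb and near 790 kb from the gene start occurred in both, those near 59 and 131 kb in replicate 1, and those near 477 and 1019 kb in replicate 2. The highest bin lay within 5 kb of the far anchor of an IGFBP5 loop, in any library, for 4 of 4 stretches in replicate 1 and 3 of 4 in replicate 2, while such positions took up 32.8% of the 1023 bins of the region. Because a stretch spans 22 or more bins, these positions are approximate.

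At MSTN the signal was low, 24.9 and 17.1 in LW, and none was listed in either MS library (limma adjusted p = 0.193, with 0 entered there). No RNA of MSTN itself was listed in any library. The signal came from the RNA of TTN at 6.36 and 17.1 in LW, and in LW replicate 1 also from ENSSSCG00000044834, transcribed on chromosome 7, at 18.5. Each was a stretch of 25 to 31 bins, ordinary in size among the stretches of these RNAs: 61.9% and 81.3% of the TTN stretches in the same libraries had less signal. TTN RNA lay at the ends of 12.3% and 11.9% of all genes in LW and 22.2% and 18.5% in MS.

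ACVR2A showed the reverse, with 24.7 and 19.8 in MS and no listed signal in either LW library (limma adjusted p = 0.188, with 0 entered there). The main RNA was ENSSSCG00000048037, transcribed on chromosome 3, with 17.2 and 19.8, and TTN RNA added 7.49 in MS replicate 1. This RNA lay at the ends of 9.85% and 17.7% of all genes in LW and of 21.6% and 25.2% in MS, so it reached more genes in the MS libraries in general. Its reads were 326748 and 417569 in LW against 380519 and 547164 in MS, and their part in the ACVR2A difference was not tested. Neither the MSTN nor the ACVR2A difference passed the study's threshold in every fit: without MS replicate 1 or MS replicate 2 the unadjusted limma p at MSTN was 0.0875 and 0.0887, and without LW replicate 1 that at ACVR2A was 0.0558.

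ACVR2B had a signal of 33119 in LW replicate 2, 0 in LW replicate 1, and 16.6 and 8.19 in MS. The high value was an unnamed transcript outlined inside ACVR2B from 23271188 to 23275616 on the plus strand, with 642 reads in that library and absent from the other lists. With reads this close to the lowest listed number, its presence in a single list was not read as a difference. LW over MS the log2 difference was 4.16 ± 5.66 (SE, limma adjusted p = 0.747), and it was −3.24 without LW replicate 2.

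IGF1R had signal in all 4 libraries, 601 and 1997 in LW against 711 and 759 in MS. Its source was the same throughout, the RNA ENSSSCG00000035223 outlined over SYNM and TTC23, 164.6 kb away, with 601 and 1541 in LW against 706 and 727 in MS. That RNA reached the ends of only 6 to 8 genes per library. A second transcript over TTC23, Tx.65, added 411 in LW replicate 2. The breeds overlapped, with a log2 difference of 0.27 ± 1.01 (SE, limma adjusted p = 0.921). Without LW replicate 2 it came to −0.24, and leaving out MS replicate 2 gave −0.27.

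TAB1 had 18.5 and 495 in LW against 0 and 26.5 in MS. The value of LW replicate 2 was the RNA of TNRC6B, which encodes a protein of the microRNA silencing complex, listed in that library alone and 515.9 kb away. Between breeds the log2 difference was 4.27 ± 2.22 (SE, limma adjusted p = 0.547).

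Other genes of the same pathways were taken from a list of 78, of which 74 were in the RefSeq table. Of the 61 with a loop at an end, 2 passed the study's threshold towards LW, beside 2.83% of all genes, 0 towards MS, beside 2.50%, and 0 the adjusted test. The count towards LW was near the background, and the median log2 difference was 0.08 beside 0.02 for all genes. XIAP, an adaptor between BMP receptors and TAB1, scored 6.07 and 12.0 in LW and 0 in both MS libraries (limma adjusted p = 0.804). BMPR1B, a type I BMP receptor, scored 6.09 and 3.48 in LW and 0 in both MS libraries (limma adjusted p = 0.889). These are small scores, from few loops each.

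In RNA-chromatin signal 68 pathway genes were tested, of which 4 passed the study's threshold towards LW, beside 7.49% of all genes, 7 towards MS, beside 8.28%, and 0 the adjusted test. Both directions together were near the background of all genes. The median log2 difference was −0.48 beside −0.05 for all genes. By list, ligands and their processing had 0 towards LW and 2 towards MS, their binding proteins and inhibitors 1 and 0, activin and TGF-beta receptors 0 and 1, SMAD and TAK1 signalling 1 and 0, IGF receptors and binding proteins 1 and 3, and insulin and IGF signalling 1 and 1. AKT2, the AKT kinase most used in insulin-stimulated glucose uptake, had 11.3 and 20.8 in LW against 13887 and 13172 in MS, with a log2 difference of −9.54 ± 0.87 (SE, limma adjusted p = 0.108). As at IGFBP5, the high values were the gene's own RNA, listed in MS alone with 2451 and 3019 reads. MTOR, the kinase that raises protein synthesis below AKT, had 289 and 773 in LW against 0.65 and 10.6 in MS (limma adjusted p = 0.147), and the LW signal was the RNA of CASZ1, a zinc finger transcription factor.

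IGFBP2, the neighbour of IGFBP5 and likewise an IGF-binding protein, had 175 and 688 in LW against 3287 and 3531 in MS (limma adjusted p = 0.231). In MS 2838 and 3266 of this was IGFBP5 RNA, so the values of the 2 genes are not separate observations. IGF2R, which clears IGF2, had 0 and 4.20 in LW against 19.7 and 33.3 in MS (limma adjusted p = 0.277). IGFBP4 had 47.5 and 50.9 and TGFB3 21.3 and 115 in MS, and neither had a listed signal in LW. FSTL1, a follistatin-like secreted protein, had 13.0 and 30.4 in LW against 0 and 0.10 in MS (limma adjusted p = 0.183), and SMAD1, a transducer of BMP signals, had 109 and 30.1 in LW against 0 and 0.09 in MS (limma adjusted p = 0.201). The signal at IGF2R, IGFBP4, TGFB3, FSTL1 and SMAD1 came from RNAs of other genes.

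For the 6 growth genes with loops in all 4 libraries, the genes on other chromosomes with the most similar normalized interaction scores were named by Euclidean distance on the log2 scale over the 4 libraries. MSTN was nearest to PDPN (distance 0.293) and TRNAF-GAA (0.351), ACVR2A to TICAM2 (0.238) and NEK4 (0.326), and FST to LMNB2 (0.233) and RNMT (0.390). IGF1R was nearest to LOC110257526 (0.172) and LOC106506838 (0.277), IGFBP5 to TBL1XR1 (0.359) and LOC106505748 (0.387), and TAB1 to TTC21A (0.273) and SENP3 (0.278). With 4 libraries such likeness describes level and spread only.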

How the data were processed

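Lists from 8 libraries of LW and MS muscle were used, 2 per breed and assay. For BL-HiChIP the authors trimmed the linker with ChIA-PET2, mapped with BWA-MEM 0.7.17 to Sscrofa11.1, removed duplicates with Pairtools 0.3.0 and called loops per library with FitHiChIP. The value the authors deposited per loop was read as an FDR (q-value), because it ends just under 0.01. For GRID-seq the authors mapped with Bowtie2 2.2.5 and corrected for background after selecting chromatin-enriched RNAs. In the deposited lists 1 column was taken as the count of reads of each RNA, and another as the background-corrected signal of that RNA on a 1-kb bin. The lists carry no column names, so these readings rest on the values.

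Genes were placed by a RefSeq table (Sscrofa11.1) without strands, so both gene ends were used. No genome sequence was used. Lines repeating an RNA and bin were summed. Quantile normalization over the 4 libraries of each assay came before the comparison with limma 3.58.1 in R 4.3.3 on log2(value + 1), which understates the change of low genes, with Benjamini-Hochberg adjustment over all genes, and the procedure was tested on simulated data. DESeq2 1.42.0 on the rounded loop score was an alternative. Other computations used Python 3.11.15, numpy 2.4.6 and pandas 2.3.3. Samples were grouped by their titles. The depth is that of the lists, and contact counts were not analysed here, so no counting interval is given.

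Named were the 9 growth genes, genes with an end on the far anchor of a loop in at least 2 libraries, the RNAs with the largest signal, up to 10 pathway genes past the study's threshold by smallest p, and 2 genes of similar score per growth gene. The growth genes and pathway lists were chosen with earlier results of these data known. Alternatives covered normalization, pseudocount, filter, windows, FDR, the gene's own RNA, a replicate block and leaving out each library.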

Additional observations from a re-analysis of the deposited data

How the results depend on the processing

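No fit gave an adjusted p under 0.05 for any gene: 0 in each of the limma fits and 0 with DESeq2. Among the growth genes' loops, the part of the LW loops found in MS was 28.8% to 50.0% over the fits that left out 1 library each, and 28.8% is the value without MS replicate 1. The part of the MS loops found in LW was 42% to 63.6% over these, 70.4% at an FDR of at most 0.001 and 69.2% for loops in both libraries of a breed. With each anchor allowed to lie 1 bin away, 51.5% of the LW loops were found in MS and 68% of the MS loops in LW. The ACVR2B interaction score difference was −0.33 at an FDR of at most 0.001. With RNAs of the gene itself left out the signal difference was −2.96 at ACVR2B and −4.65 at IGF2. Leaving out 1 library each gave interaction score differences of −0.91 to 2.23 for ACVR2A, −1.10 to 2.28 for ACVR2B, −0.40 to 0.85 for FST and −1.03 to 0.0556 for TAB1, and signal differences of −3.24 to 11.42 for ACVR2B and −0.27 to 0.77 for IGF1R. Where a breed kept 1 library, that library was assumed to vary like those of the other breed. The cause was not tested. IGFBP5 passed the study's threshold for signal in every fit except that without its own RNA. Genes past the study's threshold in interaction score, 436 towards LW and 386 towards MS, numbered 862 towards LW without normalization, 957 towards MS at a pseudocount of 0.1, 100 and 146 with DESeq2, and up to 884 and 876 with 1 library left out. For RNA-chromatin signal, 1746 and 1930, they reached 3231 and 3016 with 1 library left out.

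Replicate numbers are shared between breeds, with no source saying that they mark a shared animal or day. Deviations of same-numbered libraries correlated at 0.354 in interaction score and −0.00621 in signal. With the replicate block 696 genes passed the study's threshold towards LW and 593 towards MS in interaction score, and 1167 and 1379 in signal. The block left 0 adjusted calls, with MSTN at an adjusted p of 0.642 and IGFBP5 at 0.791 in interaction score, and at IGF2 the unadjusted p of the signal was 0.104. The planned test of RNA reads with edgeR, and its alternatives, were not run, because no RNA of a growth gene was in all 4 lists. Contact counts were not used, so the precision of single loops is unknown.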

Other observations

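The lists also held the RNAs of 6 other pathway genes. SMAD3, which carries myostatin and activin signals to the nucleus, had 15635 and 17266 RNA reads in LW and 15549 and 18620 in MS. PIK3R1, the regulatory subunit of PI3-kinase below IRS1, had 10226 and 11262 in LW against 14024 and 16471 in MS, higher in both MS libraries. These reads were neither scaled to library totals nor tested, and the share of all listed RNAs with this order is not given. IRS1 had 6652 reads in LW replicate 2 and 16002 and 18944 in MS, and was not in the list of LW replicate 1. GRB10, an adaptor that dampens insulin and IGF1 receptor signalling, had 11539 and 12688 in LW and 10257 in MS replicate 2, and was not in the list of MS replicate 1. AKT2 was in the MS lists alone, and EIF4EBP1, the translation repressor that mTOR inactivates, in MS replicate 2 alone with 2032 reads.

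Of loops with an anchor inside IGF1R, 29 in LW replicate 1 and 23 in MS replicate 1 did not touch a gene end, beside 6 in LW replicate 2 and 8 in MS replicate 2. Some of these left the gene, such as one of 335 kb. Both replicate 1 libraries exceeded both replicate 2 libraries, and the share of all genes with this order is not given. A 45-kb loop inside the gene was called in all 4 libraries, with −log10 FDR values of 4.26 and 4.20 in LW against 4.73 and 4.17 in MS.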
